A study of Mus musculus with 6 samples.

Results

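The heparan sulfate synthesis enzymes are described here through 10 genes, Ext1, Ext2, Extl1, Extl2, Extl3, Ndst1, Ndst2, Glce, Hs2st1 and Hs6st1, taken by gene name from the 55487 genes of the deposited table. The group was chosen by the rise of Extl1 in Bhlhe22 over vector cells in these same data, so the values of Extl1 are given as a description without a test, and no count that includes it is read as support for anything. All 10 genes were in the table and all 10 passed the filter on low counts. The study sequenced RNA of cultured RM-1, a prostate cancer cell line of the mouse, with 3 libraries from cells given a lentivirus for overexpression of Bhlhe22 (Bhlhe22 cells) and 3 from cells given a blank vector lentivirus (vector cells). The protein made from Bhlhe22 is a transcription factor of the basic helix-loop-helix class that acts in neurons during development. Both groups are the same cell line and both carry a lentivirus, and the labels name neither the promoter that drives Bhlhe22 nor whether the cells are a clone or a pool. They also do not say whether replicates were separate cultures, so the spread behind each p-value may be a technical one.

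Heparan sulfate is a linear sulfated sugar chain that is built in the Golgi on core proteins of the cell surface and matrix, where it binds growth factors, chemokines and proteases. Exostosin family enzymes start and lengthen the chain with alternating glucuronic acid and N-acetylglucosamine. The N-deacetylase/N-sulfotransferases then replace acetyl groups with sulfate, glucuronyl C5-epimerase turns glucuronic acid into iduronic acid, and O-sulfotransferases add sulfate at further positions. The pattern that results shapes which proteins the chain can bind.

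Libraries held 15464709 to 25129552 counts. Bhlhe22 had 0 counts in all 3 vector libraries and 572 to 764 CPM (counts scaled to library size with TMM factors) in the 3 Bhlhe22 libraries. Bhlhe22 replicate 1 stood apart from the other Bhlhe22 libraries. Its counts differed from theirs by 35.7 and 47.3 times counting noise (chi-square per degree of freedom over genes), against 13.6 between Bhlhe22 replicates 2 and 3 and 10.8 to 11.7 among vector libraries. Of 14663 genes tested, 1520 were called higher and 1361 lower in Bhlhe22 cells (edgeR quasi-likelihood test, Benjamini-Hochberg threshold 0.05), and without Bhlhe22 replicate 1 the numbers were 2345 and 2337. The epithelial keratin genes Krt8 and Krt18 lay at 515 to 766 CPM and the mesenchymal gene Vim at 1248 to 1716 CPM, while the E-cadherin gene Cdh1 did not exceed 0.291 CPM. Among the epithelial and mesenchymal markers Krt8 fell (log2 fold change -0.47, edgeR adjusted p = 0.0047), Krt19 rose (0.40, edgeR adjusted p = 0.015) and Vim fell (-0.33, edgeR adjusted p = 0.023). Members of each list went both ways. Without a call, the mesenchymal genes Fn1 (0.39) and Col1a1 (0.28) went up and Cdh2 (-0.35) and Zeb1 (-0.21) went down. The epithelial genes Krt18 (-0.0002) and Epcam (-0.01) were also not called. Vim makes up most of the mesenchymal sum below. The summed level of 5 epithelial genes was 1533 to 1609 CPM in vector and 1326 to 1573 CPM in Bhlhe22 libraries, and that of 5 mesenchymal genes was 2073 to 2235 and 1833 to 1920 CPM. The part of these shifts in the results that follow was not tested. The prostate genes Hoxb13, Pbsn and Krt5 had 0 counts in all libraries and Trp63 at most 0.111 CPM. Among immune markers, Cd68 lay at 37.8 to 52.0 CPM and Ptprc, Adgre1, Itgam and Cd3e at 0.197 CPM or below.

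The promoters of Extl1 and Glce are shown because these genes had the greatest fold changes among the 10. Both are the 250 bases before the RefSeq start site in GRCm38.p6, on the minus strand and written 5′ to 3′, at chr4:134372548-134372797 for Extl1 and chr9:62122610-62122859 for Glce. The Extl1 window lies inside the gene span of GENCODE M21. The coding transcript there starts 11 bases before the RefSeq start site, and the span runs further because a non-coding transcript starts 11.3 kb before it, at base 134383850, a start that is not covered by the window. For Glce, coding transcripts of GENCODE M21 start 1 and 46 bases before the RefSeq start site. Another coding transcript starts 52.0 kb after it, and the window does not cover that start. Capitals mark every CCAAT and every GGGCGG on either strand.
Extl1: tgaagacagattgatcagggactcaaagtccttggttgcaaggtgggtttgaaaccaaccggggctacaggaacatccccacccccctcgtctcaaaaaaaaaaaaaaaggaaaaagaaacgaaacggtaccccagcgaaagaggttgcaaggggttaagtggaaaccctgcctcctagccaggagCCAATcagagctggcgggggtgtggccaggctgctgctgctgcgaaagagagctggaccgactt
Glce: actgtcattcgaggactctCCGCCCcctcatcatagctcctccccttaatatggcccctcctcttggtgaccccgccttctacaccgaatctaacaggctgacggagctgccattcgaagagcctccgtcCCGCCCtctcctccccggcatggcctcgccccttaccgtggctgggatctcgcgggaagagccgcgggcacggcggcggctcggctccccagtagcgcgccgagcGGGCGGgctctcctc
The E-box CANNTG, the general letters bound by basic helix-loop-helix factors, did not occur in either window, nor did CATATG, which is one form of it. Among all 32851 RefSeq windows of this length, 66.2% held CANNTG and 3.46% CATATG, both strands searched. Extl1 had 1 CCAAT, starting 64 bases before the start site, and 33.8% of all windows held 1 or more at any position. Glce had 3 matches to GGGCGG, and 32.7% of all windows held 1 or more. Windows were on hand for 7 of the 10 genes, 8 windows in all because Extl2 had 2, and CANNTG was present in those of Ext2 and in 1 of Extl2. GC content was 53.2% for Extl1 and 67.2% for Glce, against a median of 52.4% over all windows. A match of letters is a description of these windows and not a binding site.

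The group divided into 2 genes with fold changes of about 2 or more and 8 with smaller fitted changes. Extl1 was 8.43 times and Glce 2.00 times as high in Bhlhe22 cells as in vector cells, while the fitted changes of the other 8 genes lay between -0.25 and 0.36 on the log2 scale. Counting Extl1, 3 of the 10 genes were called higher (Extl1, Glce, Hs6st1), where 10.4% of all tested genes were, and 1 was called lower (Hs2st1), where 9.28% were, or 4 in either direction beside 19.6%. Because Extl1 chose the group, nothing is read from these counts. The median log2 fold change over the 10 genes was 0.06, beside 0.01 over all tested genes. Groups did not overlap in 6 of the 10 genes, which was also so in 40.8% of all tested genes. In bulk RNA a change in the RNA per cell and a change in the share of cells that express a gene cannot be told apart.

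**Figure D1:**
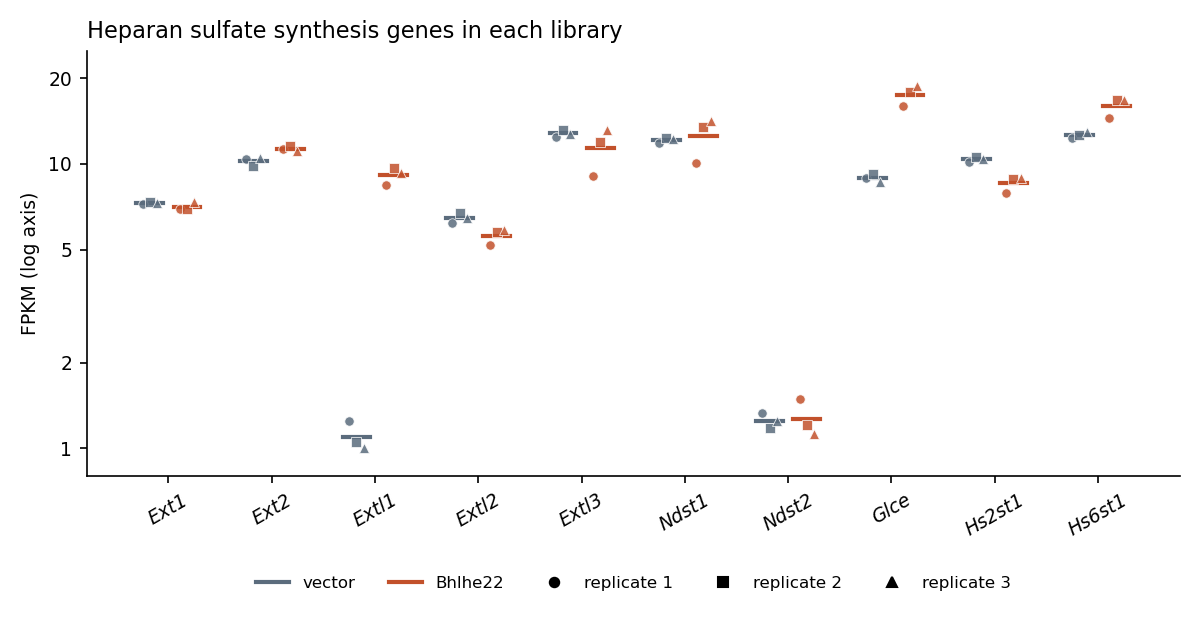
FPKM (log axis) of the 10 genes in each of the 6 libraries, with 1 symbol per replicate and a horizontal line at the group mean. Extl1 moved from 1.00 to 1.25 FPKM in vector libraries to 8.40 to 9.66 in Bhlhe22 libraries and Glce from 8.62 to 9.19 to 15.9 to 18.7, while the 2 groups of Ext1 overlap near 7 FPKM.

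In the deposited FPKM, 8 of the 10 genes in vector cells were within a narrow band of levels and Ndst2 and Extl1 were far below it. FPKM values (fragments per kilobase of gene, scaled to library total) were 12.8 for Extl3, 12.6 for Hs6st1 and 12.1 for Ndst1, and neighbours in this order overlapped between libraries. Hs2st1 at 10.4 and Ext2 at 10.2 FPKM also overlapped each other, followed by Glce at 8.91, Ext1 at 7.30 and Extl2 at 6.46, which were each separate from their neighbours. Ndst2 at 1.25 and Extl1 at 1.10 FPKM were the lowest and overlapped. In Bhlhe22 cells Glce was at the top with 17.5 FPKM, overlapping Hs6st1 at 16.0, and Extl1 at 9.13 FPKM lay beside Hs2st1 at 8.58, with which it overlapped. Ndst2 was the lowest of the 10 at 1.27 FPKM. The lengths behind the FPKM differ from GENCODE M21 exon lengths in some genes. This order therefore holds for the deposited FPKM alone. In vector cells Ndst1 had 209 CPM over 8279 exon bases and Hs2st1 91.3 CPM over 8209. Ndst2 had 12.8 CPM over 4546 and Extl1 4.83 CPM over 4333, so both pairs lie further apart by exon length. The top place in Bhlhe22 cells also depends on length, with Glce at 167 CPM over 6828 and Ndst1 at 220 CPM over 8279.

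The chain polymerase is a complex of the proteins made from Ext1 and Ext2, and loss of either gene causes multiple exostoses in humans. Ext1 (ENSMUSG00000061731, chromosome 15) was at 63.5 ± 0.682 CPM in vector cells and 62.6 ± 1.43 CPM in Bhlhe22 cells (SD, n = 3). Its fold change was 0.986 with a 95% interval of 0.884 to 1.10 (log2 fold change -0.02, edgeR adjusted p = 0.868). Ext2 (ENSMUSG00000027198, chromosome 2) was at 98.4 to 105 CPM in vector libraries and 112 to 118 CPM in Bhlhe22 libraries. The ranges did not overlap, but the difference did not pass the test (0.16 ± 0.06 SE in log2 fold change, edgeR adjusted p = 0.123), with an unadjusted interval of 1.01 to 1.25 for the fold change. The ratio of Ext2 to Ext1 in FPKM was 1.33 to 1.44 in vector libraries and 1.51 to 1.66 in Bhlhe22 libraries, a difference that was not tested. The level of this ratio depends on the gene lengths behind the deposited FPKM.

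Extl1 encodes an exostosin-like N-acetylglucosaminyltransferase, which in humans adds this sugar to growing heparan sulfate chains in vitro. The gene (ENSMUSG00000028838) spans bases 134356372 to 134383850 of chromosome 4 (GRCm38, minus strand) and shares no exon base with another gene of GENCODE M21. It had 99, 95 and 94 counts in vector replicates 1, 2 and 3, and Bhlhe22 replicates 1, 2 and 3 had 574, 834 and 1035. These are 5.49, 4.61 and 4.398 CPM and 37.7, 43.1 and 41.2 CPM. Every Bhlhe22 library was far above every vector library, and the 3 Bhlhe22 libraries lay close together. The means were 4.83 ± 0.576 and 40.7 ± 2.72 CPM (SD, n = 3), a log2 fold change of 3.08 (SE 0.12), rank 33 of 14663 by increase. Leaving out each library in turn gave log2 fold changes from 3.01 to 3.17. On the log2(FPKM + 1) scale, which compresses low genes, it was 2.27.

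Neither of the other exostosin-like genes was called. Extl3, which encodes the enzyme that adds the first N-acetylglucosamine and so commits a chain to heparan sulfate, was at 117, 124 and 120 CPM in vector libraries and 87.0, 114 and 124 CPM in Bhlhe22 libraries. The groups overlapped, and Bhlhe22 replicate 1 was the lowest of all 6 libraries (-0.15 ± 0.13 SE in log2 fold change, edgeR adjusted p = 0.471). Without that library the log2 fold change was -0.02. Extl2, whose product can add a sugar to the linkage region and has been tied in mice to restraint of chain synthesis, was at 56.7 ± 2.24 and 49.9 ± 3.002 CPM (SD, n = 3). Its ranges did not overlap and its log2 fold change of -0.18 did not pass the test (SE 0.08, edgeR adjusted p = 0.162).

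Summed over the 5 exostosin family genes, transcripts came to 37.5 to 38.1 FPKM in vector libraries and 40.8 to 46.7 FPKM in Bhlhe22 libraries. Extl1 made up 3.33%, 2.76% and 2.64% of this sum in vector replicates 1, 2 and 3 and 20.6%, 21.0% and 19.96% in Bhlhe22 replicates 1, 2 and 3. Without Extl1 the sum was 36.3 to 37.1 FPKM in vector libraries and 32.4 to 37.4 FPKM in Bhlhe22 libraries, with overlap between the groups. Against Ext1, Extl1 moved from 0.151 ± 0.0194 to 1.29 ± 0.0930 in FPKM ratio (SD, n = 3). All of these shares and ratios hold the values of Extl1 that chose the group, so they carry no test. The sums, shares and ratios also depend on the gene lengths behind the deposited FPKM.

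**Figure D2:**
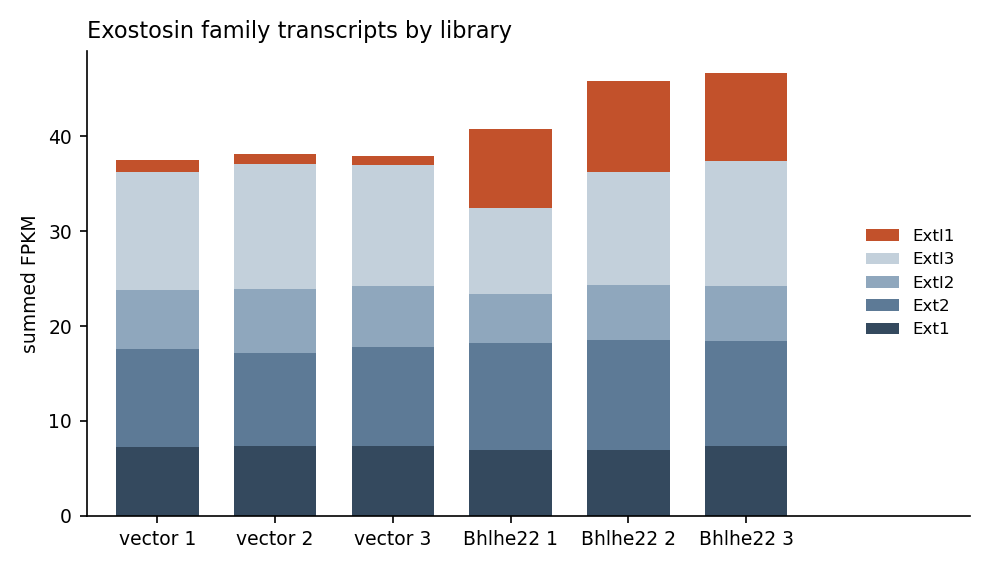
FPKM summed over the 5 exostosin family genes in each library, with 1 colour per gene. The Extl1 segment is 1.00 to 1.25 FPKM high in vector libraries and 8.40 to 9.66 FPKM in Bhlhe22 libraries, and the segments of the other 4 genes together reach 32.4 to 37.4 FPKM in all 6 libraries.

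Of the 5 modifying enzyme genes among the 10, Glce had the greatest fold change. Glce encodes glucuronyl C5-epimerase, which makes the iduronic acid units that give the chain its flexibility. The gene (ENSMUSG00000032252) spans bases 62057248 to 62122655 of chromosome 9 (GRCm38, minus strand) and shares 1.13% of its exon bases with another gene on that strand. It had 1514, 1774 and 1727 counts in vector replicates 1, 2 and 3, and Bhlhe22 replicates 1, 2 and 3 had 2328, 3313 and 4445, which is 83.9, 86.1 and 80.8 CPM and 153, 171 and 177 CPM. All Bhlhe22 libraries were above all vector libraries. The rise from 83.6 ± 2.68 to 167 ± 12.5 CPM (SD, n = 3) was a log2 fold change of 1.00 (SE 0.08, edgeR adjusted p = 3.8e-04), with a 95% interval of 1.76 to 2.27 for the fold change. It ranked 400 of 14663 by increase. Glce was called in all 6 fits that each left out 1 library, with log2 fold changes from 0.96 to 1.05 and edgeR adjusted p up to 0.0058, and under every other alternative tried.

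Hs2st1 encodes the 2-O-sulfotransferase, which acts mainly on iduronic acid and so follows the epimerase. It was at 89.7, 92.8 and 91.4 CPM in vector libraries and 71.3, 79.3 and 79.4 CPM in Bhlhe22 libraries. The groups did not overlap, and Bhlhe22 cells were lower by a small amount (-0.25 ± 0.07 SE in log2 fold change, edgeR adjusted p = 0.0497). This call lies at the threshold. It was kept without Bhlhe22 replicate 1 (log2 fold change -0.21, edgeR adjusted p = 0.014) and lost without any other single library (-0.28 to -0.24, edgeR adjusted p from 0.078 to 0.162). It was also lost with limma-voom (adjusted p = 0.051), with no filter in edgeR (0.108) and with the replicate block in edgeR (0.1003). The ratio of Glce to Hs2st1 in FPKM was 0.830 to 0.877 in vector libraries and 2.01 to 2.09 in Bhlhe22 libraries, with no test made of it. Its level depends on the gene lengths behind the deposited FPKM. In vector cells Glce had 83.6 CPM over 6828 exon bases and Hs2st1 91.3 CPM over 8209, so which gene is higher there is not settled.

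Hs6st1 encodes a 6-O-sulfotransferase that acts on glucosamine units. It was at 85.9, 88.0 and 90.2 CPM in vector libraries and 103, 119 and 118 CPM in Bhlhe22 libraries, again without overlap. The rise was a log2 fold change of 0.36 (SE 0.08, edgeR adjusted p = 0.017), or 1.29-fold with a 95% interval of 1.14 to 1.46. Without Bhlhe22 replicate 1 it was called with a log2 fold change of 0.42 (edgeR adjusted p = 5.8e-04), and without any other single library it was not (0.33 to 0.38, edgeR adjusted p from 0.052 to 0.090). Of its exon bases 8.07% also belong to a gene of the opposite strand, and no source used here tells if counting used the strand.

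Ndst1 and Ndst2 encode bifunctional enzymes that remove acetyl groups and add N-sulfate, the step on which later modifications depend. Ndst1 was at 204, 213 and 211 CPM in vector libraries and 177, 236 and 246 CPM in Bhlhe22 libraries. The vector values lay inside the range of the Bhlhe22 values, whose lowest was again replicate 1. The difference did not pass the test with all 6 libraries (0.07 ± 0.12 SE in log2 fold change, edgeR adjusted p = 0.736). Without Bhlhe22 replicate 1 it did (log2 fold change 0.20, edgeR adjusted p = 0.014), where 15.7% of 14945 tested genes were called higher, and without Bhlhe22 replicate 3 the log2 fold change was -0.015. Ndst2 was at 12.8 ± 0.826 and 13.2 ± 2.09 CPM (SD, n = 3), with overlapping groups and a fold change of 1.03 (95% interval 0.825 to 1.28, edgeR adjusted p = 0.874). In FPKM Ndst1 exceeded Ndst2 by 6.76 to 12.6 times over the 6 libraries, a ratio whose level depends on the gene lengths behind the deposited FPKM.

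**Figure D3:**
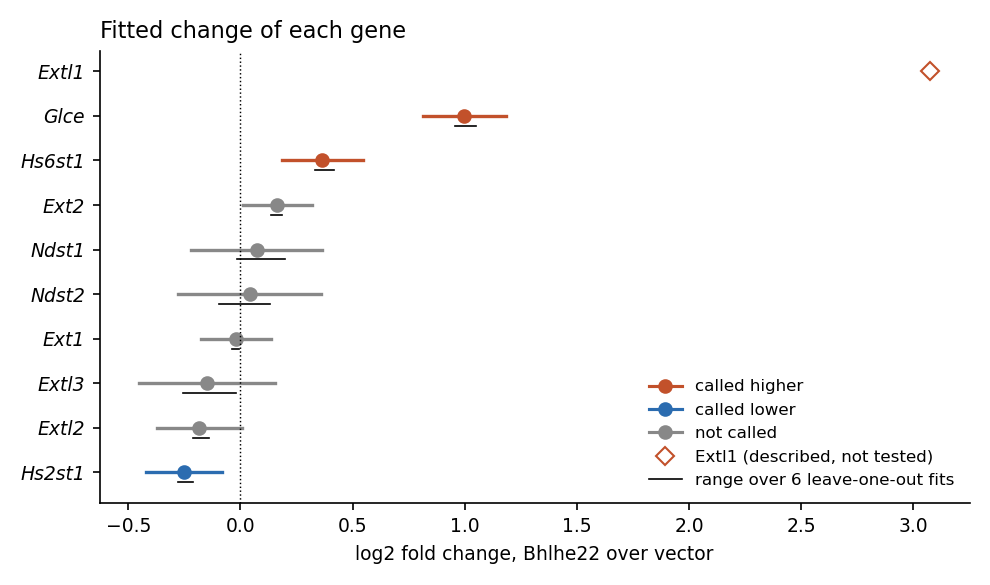
Fitted log2 fold change of Bhlhe22 over vector cells for the 10 genes, with 95% intervals that are not adjusted for the number of genes and, below each, the range over the 6 fits that left out 1 library; Extl1, which chose the group, is drawn as a point alone. Extl1 is at 3.08, Glce is at 1.00 with its interval and range above 0, and the other 8 lie between -0.25 and 0.36.

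The 3 genes whose pattern over the 6 libraries was most like that of Extl1 were Cd74 (Pearson r = 0.9995), the invariant chain of MHC class II, Cln8 (0.9992), an endoplasmic reticulum membrane protein gene, and Napb (0.9989), a gene of vesicle fusion. The r is of log2(CPM + 0.5) over 6 libraries, among 11359 protein-coding genes that averaged 1 CPM or more. It is a description. In all 3 genes the groups did not overlap, which the choice by likeness to Extl1 makes almost certain, so nothing is read from it. Over all tested genes 40.8% did not overlap. Cd74 went from 3.46 ± 0.140 to 11.8 ± 0.520 CPM, Cln8 from 23.7 ± 0.642 to 53.3 ± 2.47 CPM and Napb from 8.67 ± 0.947 to 49.6 ± 5.03 CPM (SD, n = 3).

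Around the 10 genes, 86 further genes in 7 lists cover the making, carrying and breakdown of the chain, and its neighbours. The neighbours are 16 genes of the chondroitin branch (13 tested) and 12 of fibroblast growth factors and their receptors (4 tested). Of the 86 genes, 57 were tested, of which 9 were called higher and 8 lower. The other 40 did not pass the test, beside 10.4% higher and 9.28% lower over all tested genes. Counts in the single lists below are small and are read against the same shares. The median log2 fold change of the 57 was -0.11, beside 0.01 over all genes. Of the 17 called genes, Sulf2, Gusb, Chpf2 and Chst12 were called in all 6 fits that left out 1 library, and the other 13 were lost in at least 2 of those fits. The count higher ranged from 1 to 13 and the count lower from 4 to 12 over those fits. Over all tested genes the same fits called 715 to 2345 higher and 633 to 2337 lower, beside 1520 and 1361 with all 6 libraries. Calls lost or gained in single genes are read against that table-wide change.

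Of 7 genes that build the linkage tetrasaccharide, on which both heparan and chondroitin sulfate are assembled, 1 was called higher and 1 lower, beside 10.4% and 9.28% of all tested genes. Xylt1, a xylosyltransferase that begins the linkage, went from 9.33 ± 1.09 to 5.91 ± 1.14 CPM (log2 fold change -0.65, edgeR adjusted p = 0.038). B3gat3, which adds the last sugar of the linkage, went from 26.0 ± 1.72 to 33.4 ± 2.68 CPM (0.36, edgeR adjusted p = 0.039). Xylt1 kept its call without Bhlhe22 replicate 1 or 3 and lost it without any other single library (edgeR adjusted p from 0.088 to 0.133). B3gat3 kept it without Bhlhe22 replicate 1 and lost it without any other (0.064 to 0.143).

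Most other modifying enzymes were at or near the limit of detection. Of 13 genes 6 had 0 counts in all libraries (Ndst4, Hs6st2, Hs6st3, Hs3st1, Hs3st2 and Hs3st4), which allows each up to 0.119 to 0.197 CPM in a library by counting error alone (3 counts), and 3 passed the filter. Sulf2, an extracellular sulfatase that removes 6-O-sulfate from finished chains, fell from 42.2, 49.7 and 44.9 CPM in vector libraries to 25.4, 27.8 and 27.6 CPM in Bhlhe22 libraries. The groups were well apart (-0.76 ± 0.09 SE in log2 fold change, edgeR adjusted p = 0.0020). The related sulfatase gene Sulf1, chosen after its values were seen, had 2 counts over all 6 libraries. Hs3st3b1, a 3-O-sulfotransferase gene, rose from 15, 14 and 30 counts to 53, 57 and 50 counts, or from 0.972 ± 0.382 to 2.81 ± 0.755 CPM (1.499 ± 0.339 SE in log2 fold change, edgeR adjusted p = 0.022). That call rests on few counts and was lost without vector replicate 1 or 2 or Bhlhe22 replicate 2 (edgeR adjusted p from 0.068 to 0.089). Ndst3, chosen in the same way, was at 9.73 ± 0.643 and 10.3 ± 2.27 CPM and did not pass the test (log2 fold change 0.10, edgeR adjusted p = 0.744).

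Of 13 genes for sugar and sulfate donors, 11 were tested, 2 were called higher and 2 lower, beside 10.4% and 9.28% of all tested genes. Ugdh, the dehydrogenase that makes UDP-glucuronic acid, fell from 150 ± 7.74 to 119 ± 1.31 CPM (-0.34 ± 0.07 SE in log2 fold change, edgeR adjusted p = 0.014). Impad1, a Golgi phosphatase that clears the by-product of sulfation, fell from 116 ± 2.44 to 80.2 ± 14.3 CPM (-0.53, edgeR adjusted p = 0.029). The nucleotide sugar transporter genes Slc35d2 (log2 fold change 0.63, edgeR adjusted p = 0.016) and Slc35d1 (0.35, edgeR adjusted p = 0.036) rose. Papss1, which makes the sulfate donor, was at 93.8 ± 4.82 and 95.4 ± 1.96 CPM (log2 fold change 0.02, edgeR adjusted p = 0.852). Without single libraries, Ugdh lost its call without vector replicate 1 or 2 or Bhlhe22 replicate 2 (edgeR adjusted p from 0.059 to 0.063), Slc35d2 without vector replicate 1 or 2 (0.064 to 0.073) and Impad1 without any vector replicate or Bhlhe22 replicate 2 (0.064 to 0.102). Slc35d1 kept it without Bhlhe22 replicate 1 and lost it without any other (0.083 to 0.129). Papss1 was chosen after its value was seen.

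Of 15 core protein genes, 10 were tested, 3 were called higher and 1 lower, beside 10.4% and 9.28% of all tested genes. Col18a1, the gene of a basement membrane collagen that carries heparan sulfate, rose from 282 ± 21.3 to 388 ± 22.8 CPM (0.46 ± 0.08 SE in log2 fold change, edgeR adjusted p = 0.0096). The glypican genes Gpc1 (0.34, edgeR adjusted p = 0.021) and Gpc6 (0.59, edgeR adjusted p = 0.019) rose, and the syndecan gene Sdc3 fell (-0.26, edgeR adjusted p = 0.034), all values being log2 fold changes. Of these, Col18a1 lost its call without vector replicate 1 or 2 (edgeR adjusted p from 0.054 to 0.057) and Gpc6 without vector replicate 2 or 3 or Bhlhe22 replicate 2 (0.067 to 0.079). Gpc1 and Sdc3 kept theirs without Bhlhe22 replicate 1 and lost them without any other library (0.051 to 0.093 and 0.077 to 0.131). Gpc1 shares 18.9% of its exon bases with a gene of the opposite strand. The perlecan gene Hspg2, chosen after its values were seen, was at 577, 635 and 643 CPM in vector libraries and 370, 779 and 754 CPM in Bhlhe22 libraries, so that Bhlhe22 replicate 1 fell on the opposite side of the vector libraries from the other two.

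Of 10 breakdown genes, 9 were tested, 1 was called higher and 1 lower, beside 10.4% and 9.28% of all tested genes. Gusb, the lysosomal beta-glucuronidase, fell from 73.7 ± 1.12 to 45.6 ± 2.11 CPM (-0.69 ± 0.07 SE in log2 fold change, edgeR adjusted p = 0.0011). Hgsnat, the lysosomal acetyltransferase that prepares glucosamine ends for removal, rose from 35.6 ± 0.162 to 46.8 ± 1.89 CPM (0.40, edgeR adjusted p = 0.011), a call lost without any 1 vector replicate (edgeR adjusted p from 0.052 to 0.063). The heparanase gene Hpse, chosen after its value was seen, was at 39.1 ± 2.30 and 41.8 ± 0.578 CPM and did not pass the test (0.10, edgeR adjusted p = 0.449).

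In the chondroitin and dermatan sulfate branch, which competes for the same linkage, 13 of 16 genes were tested, 1 was called higher and 2 lower, beside 10.4% and 9.28% of all tested genes. Chst12, a chondroitin 4-O-sulfotransferase gene, fell from 11.2 ± 0.884 to 5.79 ± 0.436 CPM (-0.95 ± 0.12 SE in log2 fold change, edgeR adjusted p = 0.0024). Chpf2, a chondroitin polymerising factor gene, fell from 61.9 ± 6.89 to 28.9 ± 6.97 CPM (-1.10 ± 0.18 SE, edgeR adjusted p = 0.0068), but 44.1% of its exon bases also belong to a gene of the opposite strand. Csgalnact2, whose product starts the chondroitin chain, rose from 44.3 ± 2.02 to 61.9 ± 5.27 CPM (0.48, edgeR adjusted p = 0.011), a call lost without vector replicate 1 or 3 (edgeR adjusted p from 0.056 to 0.061). Of 12 fibroblast growth factor and receptor genes, whose proteins use heparan sulfate as a co-receptor, 4 were tested and 0 were called by edgeR, with 1 at an unadjusted p under 0.05, 0 called by DESeq2 and 0 by limma-voom. Fgfr1, the most abundant of them, was at 99.8 ± 5.69 and 91.1 ± 9.02 CPM (log2 fold change -0.13, edgeR adjusted p = 0.369).

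**Figure D4:**
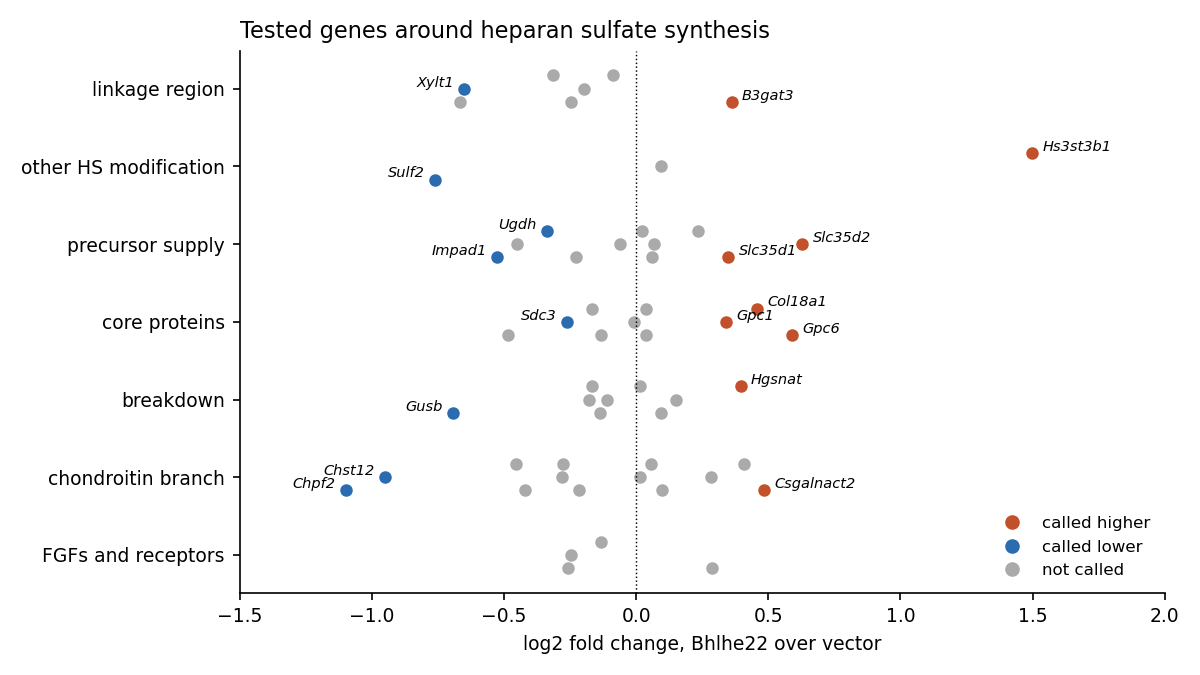
Log2 fold change of Bhlhe22 over vector cells for the 57 tested genes of the 7 lists, 1 point per gene, with called genes named. Calls lie on both sides of 0 in every list except that of fibroblast growth factors and receptors, where 0 of 4 were called, and Hs3st3b1 at 1.499 and Chpf2 at -1.10 mark the ends.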

How the data were processed

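The authors deposited raw counts per gene and FPKM values for the same 6 libraries, per the file headers. Per the submitters' processing notes, the build was GRCm38 and the tools were HISAT2 2.1.0, StringTie 1.3.4b, edgeR and CASAVA 1.8, with no step assigned to each. No source used here gives strandedness or annotation release. FPKM and counts imply 1 length per gene: lengths were equal between libraries within 0.001% for 10435 of 10435 genes that had 100 counts or more throughout.

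Counts were fitted over all genes with edgeR 4.0.16 in R 4.3.3 (TMM, filterByExpr with minimum count 10 and minimum total 15, robust quasi-likelihood test, Benjamini-Hochberg threshold 0.05), with no covariate. Alternatives used DESeq2 1.42.0, limma 3.58.1 (voom, and log2 FPKM with pseudocounts 1 and 0.1), other scalings and filters, a replicate block and each library left out. Intervals are 95% and not adjusted. Exon overlaps came from GENCODE M21, promoters from RefSeq. Plots used matplotlib 3.10.9. The genes and lists were chosen with earlier results of these data known. All 10 genes are named, with up to 4 called genes of the smallest adjusted p from each of 7 lists, or else the most abundant, and the 3 genes most like Extl1. Some marker genes are not reported here.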

Additional observations from a re-analysis of the deposited data

How the results depend on the processing

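Glce and Hs6st1 were called higher under all 11 alternatives that kept all 6 libraries; without single libraries Glce kept its call in all 6 fits and Hs6st1 lost it in 5. The number of the 10 genes called higher, from which nothing is read because it holds Extl1, was 2 to 4 over the fits without 1 library, where 0 to 1 were called lower. The number lower was 0 with limma-voom, with no filter and with the replicate block, where Hs2st1 lost its call. The log2 fold change of Extl1 was 2.27 on log2(FPKM + 1) and 3.01 to 3.17 over the fits without 1 library. For the 86 further genes, the replicate block left 4 called higher and 6 lower, where 1086 and 993 of all genes were called. The fits without 1 library gave 1 to 13 higher and 4 to 12 lower among the 86. Among the 10 genes, Ndst1 (-0.015 to 0.20) and Ndst2 (-0.10 to 0.13) changed sign over the fits without 1 library. Same-numbered replicates of the 2 groups did not deviate together (r = 0.045, 0.022 and 0.025 over genes). The labels do not say whether the numbers pair the samples, and these values cannot exclude it. Over all genes, 1520 were called higher and 1361 lower with all 6 libraries. The numbers were 715 and 633 without vector replicate 1, and 2345 and 2337 without Bhlhe22 replicate 1. These were the fewest and the most over the fits without 1 library, and the cause was not tested.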

Other observations

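The protein-coding genes beside Extl1 on chromosome 4 were looked at for their own values, by position and after the result for Extl1 was known. Slc30a2, a zinc transporter gene 1.89 kb away, had 0.141 ± 0.139 CPM in vector cells and 0.612 ± 0.160 CPM in Bhlhe22 cells (SD, n = 3) and did not pass the filter on low counts. Trim63, 26.7 kb from Extl1 on the same side, was at 0.0312 ± 0.0540 and 0.0954 ± 0.0835 CPM and did not pass it either. Pafah2, a phospholipase gene 12.5 kb away on the other side, rose from 18.1 ± 1.55 to 23.8 ± 0.649 CPM (0.40 ± 0.10 SE in log2 fold change, edgeR adjusted p = 0.027). Stmn1, a tubulin-binding protein gene beyond it, was at 57.3 ± 4.52 and 49.6 ± 11.3 CPM (edgeR adjusted p = 0.423). Calls among neighbours, here and below, stand beside 19.6% of all tested genes called in either direction. Their fits without 1 library are not given here.

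Beside Glce on chromosome 9, Paqr5 was at 0.817 ± 0.209 and 0.925 ± 0.408 CPM (edgeR adjusted p = 0.733). Kif23, a mitotic kinesin gene 110 kb away, fell from 117 ± 2.44 to 79.8 ± 4.34 CPM (-0.55 ± 0.07 SE in log2 fold change, edgeR adjusted p = 0.0023). Anp32a, on the other side, was at 148 ± 8.32 and 117 ± 27.6 CPM (edgeR adjusted p = 0.182), and Spesp1 on that side had a mean of 0 CPM in both groups. Neighbours of Hs6st1 and Hs2st1 were looked at in the same way. Of these, Lmo4 beside Hs2st1 was called higher (log2 fold change 0.50, edgeR adjusted p = 0.033) and the others did not pass the test.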
